A study of Rattus norvegicus with 13 samples.

Results

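The comparison sets 7 livers of undernourished pregnant rats, given 160 kcal daily per unit of metabolic weight (kg to the power 0.75), against 6 livers of rats fed 220 kcal, separately with and without ethanol, and describes the genes that went the same way both times. All 13 arrays of the series belong to it, 1 array per sample, and they were chosen by the energy level and the diet in their titles. EtOH-160 (n = 4) received ethanol at 12 g per kg per day at the lower energy supply, and EtOH-220 (n = 3) received the same ethanol dose at the higher one. TEN-160 (n = 3) and TEN-220 (n = 3) received diets without ethanol at these energy levels. All rats were time-mated female Sprague Dawley rats. Neither the day of gestation nor whether an array held the RNA of 1 animal or of a pool is stated in the labels, so the p-values measure the spread between these samples only. The title names the liver as the tissue, and the summed signal of 8 hepatocyte markers, among them Alb, Apoa1 and Ttr, was 150984 to 197889 in EtOH-160, 177366 to 205677 in EtOH-220, 194106 to 248353 in TEN-160 and 184248 to 204415 in TEN-220. Because these are whole livers, fewer cells of a type and less RNA per cell cannot be told apart.

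A liver short of energy is known to move from storing fuel to releasing it. Insulin falls while glucagon and glucocorticoids act more strongly, fat synthesis is turned down, fatty acids are oxidised, and amino acids are broken down to make glucose, with their nitrogen leaving through the urea cycle. Ethanol is itself a fuel and is oxidised mainly in the liver, so an energy deficit meets a different metabolic state in ethanol-fed and in other rats.

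The arrays differed in more than the diet. The 3 TEN-160 arrays stood apart on the first principal component of the log2 signals (30.1% of the variance), at 30.5 to 41.6, with the other 10 arrays at -13.8 to -2.63. They also had a BioDn-5 to BioDn-3 ratio, which compares both ends of a bacterial spike-in, of 0.422 to 0.497, against 0.132 to 0.210 elsewhere. The second component (12.8%) separated the energy levels: all 7 arrays at 160 kcal lay at -19.3 to 2.17 and all 6 at 220 kcal at 3.59 to 17.8. It also separated the diets within each energy level, so it is not an axis of energy alone. Scores were -19.3 to -9.34 in EtOH-160 and -5.20 to 2.17 in TEN-160. At 220 kcal they were 3.59 to 11.8 in EtOH-220 and 13.5 to 17.8 in TEN-220. The ratio of 3′ to 5′ GAPDH signal, which rises as RNA degrades, ran in opposite directions in the strata. It was 1.505 to 1.73 in EtOH-160 and 1.04 to 1.47 in EtOH-220, but 1.03 to 1.24 in TEN-160 and 1.52 to 2.32 in TEN-220. The part of these array differences in the gene results was not tested.

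**Figure D1:**
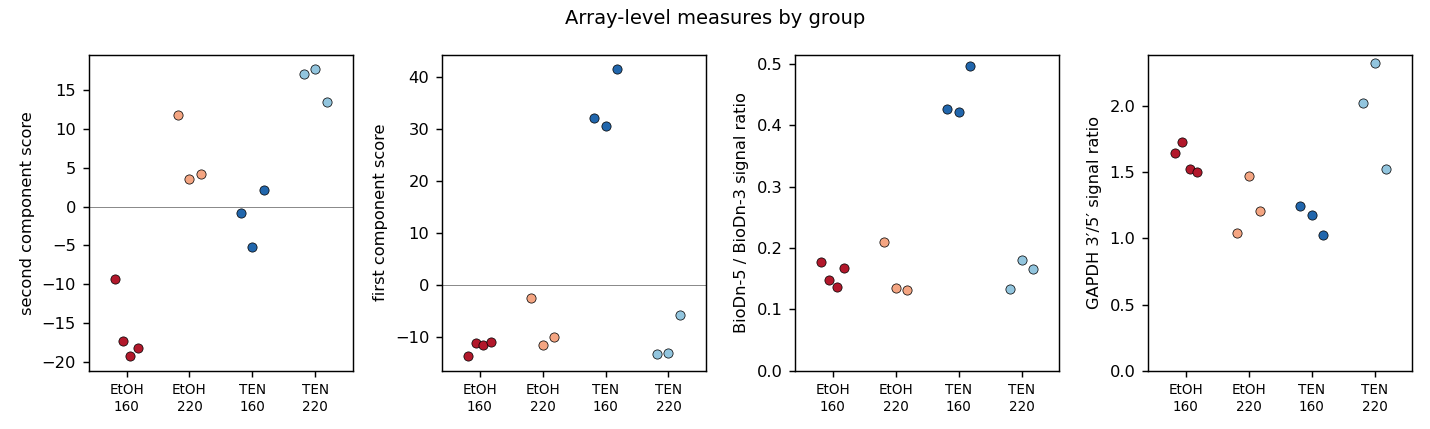
Each point is 1 array, and the panels show its score on the second and the first principal component, its BioDn-5 to BioDn-3 signal ratio and its GAPDH 3′/5′ signal ratio. The second component separates all 7 arrays at 160 kcal from all 6 at 220 kcal, and also the diets within each energy level. The first component and the BioDn ratio set the 3 TEN-160 arrays apart. The GAPDH ratio is higher in EtOH-160 than in EtOH-220 but lower in TEN-160 than in TEN-220.

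Averaged over the strata, 454 of 5244 tested probe sets differed between the energy levels (8.66%; limma, adjusted p under 0.05), 218 higher at 160 kcal (4.16%) and 236 lower (4.5%). An average can be carried by 1 stratum, and here it often was. In 74 of the 454 the strata had opposite signs, and in 227 more the signs matched but the change with ethanol did not reach an unadjusted p of 0.05. In 307 the change without ethanol was more than 2 times that with ethanol, whereas the reverse held for 19. Tested separately, energy supply changed 11 probe sets with ethanol (0.21%), 8 of them higher (0.153%) and 3 lower (0.0572%), and 958 without (18.3%), 478 higher (9.12%) and 480 lower (9.15%). The 2 sets of changes, which share no array, were unrelated across the 5244 probe sets (Pearson r = 0.022, Spearman rho = -0.019, probe sets not being independent), and 48.5% of probe sets had the same sign in both.

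A shared energy effect was therefore required to be called in the average, to have the same sign in both strata, and to reach an unadjusted p under 0.05 in each. It comprised 130 probe sets (2.48%), 58 higher at 160 kcal (1.11%) and 72 lower (1.37%). Of these, 101 named 1 gene, which made 87 genes, 40 higher and 47 lower, while 11 named several genes and 18 none. For comparison, an unadjusted p under 0.05 in both strata was reached with the same sign by 138 probe sets (2.63%), 60 of them higher (1.14%) and 78 lower (1.49%), and with opposite signs by 88 (1.68%). Groups did not overlap for 542 probe sets with ethanol (10.3%) and for 1938 without (37%). They were separate in both strata in the same direction for 129 probe sets (2.46%), of which 77 were in the shared class, and in opposite directions for 93 (1.77%). Among the 130, the median size of the change was 0.69 with ethanol and 0.95 without on the log2 scale, and 96 changed more without ethanol.

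**Figure D2:**
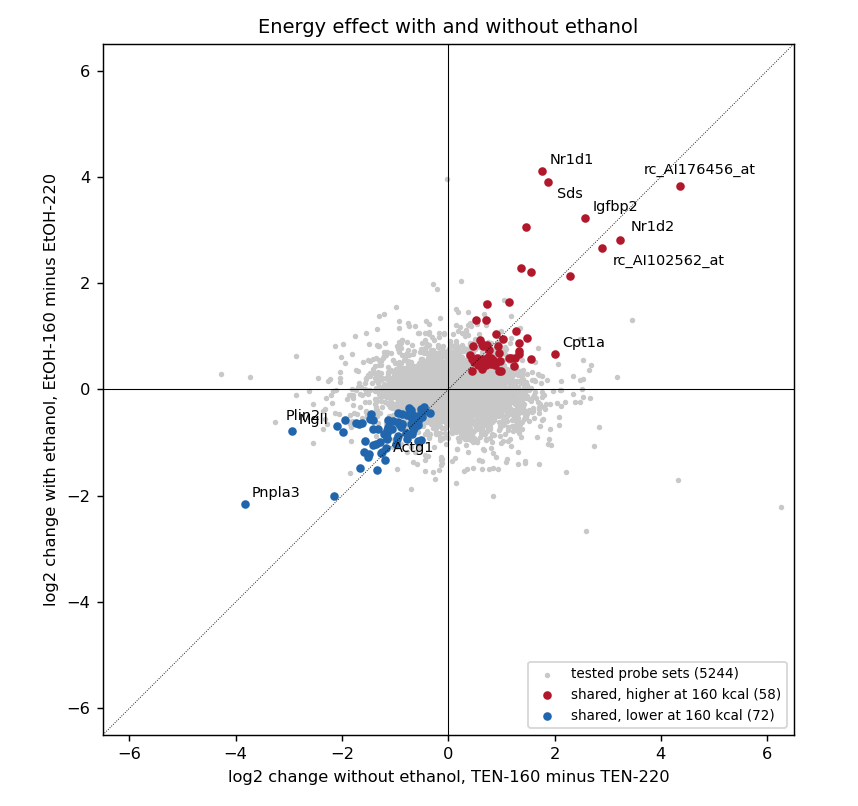
Each point is 1 of the 5244 tested probe sets, with its log2 change at 160 kcal relative to 220 kcal without ethanol on the horizontal axis and with ethanol on the vertical axis, and the dotted line marks equal changes. The grey cloud shows no common slope (r = 0.022), and the 58 shared higher probe sets in red and the 72 shared lower ones in blue lie at its upper right and lower left, with Nr1d1 and Sds above the line and Mgll and Pnpla3 changing more without ethanol.

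The largest shared rise was in probe sets that the annotation gives to metallothioneins, small cysteine-rich proteins that bind zinc and copper and are induced in the liver by metals, glucocorticoids and fasting. Since each is annotated to several genes, they are not assigned to 1 gene here. The probe set rc_AI102562_at, annotated to Mt1f, Ttr and Mt1, read 24587, 27674, 23458.5 and 32253 in EtOH-160 livers, against 2494, 5796 and 5289 in EtOH-220 livers, and 20894, 21120.0 and 19102 in TEN-160 livers, against 2359.7, 1560.5 and 5569.6 in TEN-220 livers. All 7 livers at 160 kcal lay above all 6 at 220 kcal, the lowest of the 7 at 19102 and the highest of the 6 at 5796. Its log2 change was 2.66 (SE 0.35) with ethanol and 2.89 (SE 0.38) without (average adjusted p = 0.000128). It was the only probe set called by a test that takes the larger of the 2 strata's p-values (adjusted p = 0.014, 0.0191% of probe sets), and that count became 0 when TEN-220 replicate 1, EtOH-220 replicate 1, any TEN-160 array or EtOH-160 replicate 2 or 4 was left out. The 2 probe sets that name Ttr alone, the thyroid hormone carrier transthyretin, did not pass, with average changes of -0.05 and 0.16 (adjusted p = 0.810 and 0.343). The probe set rc_AI176456_at, annotated to Mt1m and Mt2A, read 26861, 29691, 28480.1 and 32494 in EtOH-160 livers, against 2566, 3528 and 974 in EtOH-220 livers, and 21375, 9993 and 25751 in TEN-160 livers, against 521, 336 and 3607 in TEN-220 livers. Its changes, 3.83 (SE 0.64) with ethanol and 4.36 (SE 0.68) without, were the largest of the shared class in the average (adjusted p = 0.000444). Another probe set, M11794cds#2_f_at, has no gene name here and rose by 2.14 and 2.29 (adjusted p = 0.00125).

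Clock-linked nuclear receptors rose in both strata. Nr1d1 and Nr1d2 encode REV-ERB alpha and beta, haem-binding receptors that repress Bmal1 and link the circadian clock to metabolism. Nr1d2 read 110.0, 184, 356 and 273.5 in EtOH-160 livers, against 17.2, 24.8 and 63.2 in EtOH-220 livers, and 165, 173 and 261.5 in TEN-160 livers, against 13.2, 17.1 and 40.2 in TEN-220 livers. All livers at 160 kcal lay above all at 220 kcal, where only EtOH-220 replicate 3 exceeded the background signal of 46.6. The fitted changes were 2.81 (SE 0.51) and 3.23 (SE 0.55) (average adjusted p = 0.000521), and without ethanol, where no TEN-220 array was above background, Nr1d2 was at least 4.19-fold higher in TEN-160. Nr1d1 (M25804_at) read 182, 409, 869 and 718 in EtOH-160 livers, against 16.9, 37.6 and 30.8 in EtOH-220 livers, and 35.9, 143 and 53.6 in TEN-160 livers, against 26.7, 10 and 26 in TEN-220 livers. Both 220 kcal groups were below background throughout, so Nr1d1 was at least 9.95-fold higher in EtOH-160 (average adjusted p = 0.00166). In TEN-160 it was 1.52-fold higher with values below background set to it. That value is no lower bound, since TEN-160 replicate 1 was itself below background. The second Nr1d1 probe set gave 1.60 (SE 0.31) with ethanol and 0.73 (SE 0.33) without. Of 8 measured genes in the circadian clock list, these 2 were the shared ones. Over all measured genes, 1.12% were shared higher, 25.8% had a positive change in both strata and 23.9% a negative one. Of the 8, 3 had a positive change in both strata and 2 a negative one, the list's medians being 0.18 with ethanol and 0.13 without, the second turning to -0.08 after quantile normalization and -0.09 after median centring. The time of day at which the livers were collected is not stated in the labels.

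Klf9, a Krüppel-like factor induced by glucocorticoids and thyroid hormone, read 1202, 1641, 2218 and 1574 in EtOH-160 livers, against 727, 806 and 482 in EtOH-220 livers, and 658, 620.5 and 596 in TEN-160 livers, against 347, 375 and 425 in TEN-220 livers. Both pairs of groups were separate, with changes of 1.30 (SE 0.21) with ethanol and 0.71 (SE 0.23) without (average adjusted p = 0.00212). Of 10 measured glucocorticoid-induced genes, Klf9 and Sds were shared, Pck1 was higher in the average only, and Dusp1, a MAP kinase phosphatase, was lower in the average. Tat, tyrosine aminotransferase, had average change 0.13 and did not pass (adjusted p = 0.691). The list's median was 0.24 with ethanol and 0.18 without, the second being -0.04 after median centring.

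The promoter windows of the REV-ERB genes are shown because both genes rose together. They come from RefSeq (GRCr8) and cover 250 bases before to 50 after the start. For Nr1d1 (chr10:84229405-84229704, minus strand) the capitals mark the E-box CACGTG that clock factors are known to bind, 191 bases before the start, and for Nr1d2 (chr15:9954784-9955083, plus strand) they mark AGGTCA, the half-site of many nuclear receptors, 187 bases before the start.
Nr1d1: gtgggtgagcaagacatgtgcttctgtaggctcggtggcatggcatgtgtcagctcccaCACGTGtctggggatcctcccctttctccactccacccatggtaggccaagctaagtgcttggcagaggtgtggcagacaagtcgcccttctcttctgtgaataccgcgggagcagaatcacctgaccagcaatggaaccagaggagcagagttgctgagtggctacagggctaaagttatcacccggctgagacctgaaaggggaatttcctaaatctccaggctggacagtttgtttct
Nr1d2: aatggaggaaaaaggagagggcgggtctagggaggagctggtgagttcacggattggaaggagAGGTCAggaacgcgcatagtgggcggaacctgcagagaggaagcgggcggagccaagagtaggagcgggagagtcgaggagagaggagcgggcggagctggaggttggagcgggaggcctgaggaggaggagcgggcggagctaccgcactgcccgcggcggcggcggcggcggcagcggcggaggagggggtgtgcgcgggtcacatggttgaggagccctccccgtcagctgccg
The window of another annotated start of Nr1d1 holds neither motif.

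Igfbp2, which encodes a binding protein that carries insulin-like growth factors, rose in both strata. The probe set A09811cds_s_at read 358, 110.5, 303 and 615 in EtOH-160 livers, against 61.5, 15.5 and 32.9 in EtOH-220 livers, and 185, 303 and 45.3 in TEN-160 livers, against 19.9, 33.8 and 17.8 in TEN-220 livers. The groups did not overlap in either stratum, although TEN-160 replicate 3 stayed below background. Changes were 3.22 (SE 0.67) with ethanol and 2.57 (SE 0.72) without (average adjusted p = 0.00326). All TEN-220 arrays were below background, and with such values set to background Igfbp2 was 2.95-fold higher in TEN-160. That value is no lower bound, since TEN-160 replicate 3 was raised to background too. Another, brighter probe set rose by 2.28 and 1.36 (adjusted p = 0.00717), and the third had changes of 1.16 and 1.35 that did not pass (adjusted p = 0.162). Of 18 measured genes of the growth hormone and IGF axis, each by its brightest probe set, Igfbp2 was the only shared one. Igf1 itself changed by 0.25 and 0.05 on its brightest probe set (adjusted p = 0.554). Igfals, the acid-labile subunit that stabilises IGF complexes in plasma, fell by 0.45 with ethanol and by 0.95 without on a shared probe set (adjusted p = 0.0118).

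Amino acid breakdown and the urea cycle gave 3 shared genes among 26 measured, all higher at 160 kcal: Sds, Asl and Otc. Counting 1 probe set per gene, 1.12% of the 3129 measured genes were shared higher and 1.09% shared lower, while 3.55% were higher and 4.25% lower in the average. Serine dehydratase, Sds, which turns serine into pyruvate for glucose synthesis, read 786.5, 4931.5, 6163 and 4607 in EtOH-160 livers, against 193, 343.5 and 154 in EtOH-220 livers, and 166, 147.5 and 175 in TEN-160 livers, against 35.0, 21.7 and 113 in TEN-220 livers. The livers at 160 kcal lay above those at 220 kcal in each stratum, but the level in EtOH-160, 3239 as a geometric mean, was far above the 163 of TEN-160. Only 1 of the 3 TEN-220 arrays was above background. Fitted changes were 3.90 (SE 0.64) with ethanol and 1.88 (SE 0.68) without, the second being 1.38 with values below background set to it (average adjusted p = 0.00289), and the difference between them was not called (interaction adjusted p = 0.194). Argininosuccinate lyase, Asl, which cleaves argininosuccinate in the urea cycle, read 2480.0, 3578, 4428 and 3100.3 in EtOH-160 livers, against 1163, 1358 and 1547 in EtOH-220 livers, and 1103, 1401 and 1178 in TEN-160 livers, against 777, 893 and 890.4 in TEN-220 livers. Again both pairs were separate, with 1.30 (SE 0.19) with ethanol and 0.52 (SE 0.20) without (adjusted p = 0.00186). Ornithine carbamoyltransferase, Otc, which forms citrulline in mitochondria, rose on both of its probe sets, by 0.57 with ethanol and 0.45 without on the brighter one (adjusted p = 0.0297, lost on leaving out 7 of the 13 arrays) and by 0.34 and 0.99 on the dimmer one (adjusted p = 0.00298). In the list, 10 genes had a positive change in both strata and 1 a negative one, against 25.8% and 23.9% of all measured genes, and the remaining 15 had opposite signs. Its median was 0.26 with ethanol and -0.06 without, against -0.01 and 0.04 over all measured genes. Cps1, carbamoyl-phosphate synthase, had an average change of 0.08 that did not pass (adjusted p = 0.706). These genes are also periportal: the summed signal of 10 periportal markers was 52070 to 70745 in EtOH-160 and 42559 to 43776 in EtOH-220, but 37052 to 40959 in TEN-160 and 30825 to 41071 in TEN-220. Perivenous markers, 7 measured, summed to 28751 to 41287 in EtOH-160 and 33659 to 36927 in EtOH-220, and to 24806 to 37968 in TEN-160 and 35025 to 40962 in TEN-220. The periportal markers include Sds, Asl and Otc themselves, so the periportal sum is not independent of their rise. The part of liver zonation in the amino acid result was not tested.

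**Figure D3:**
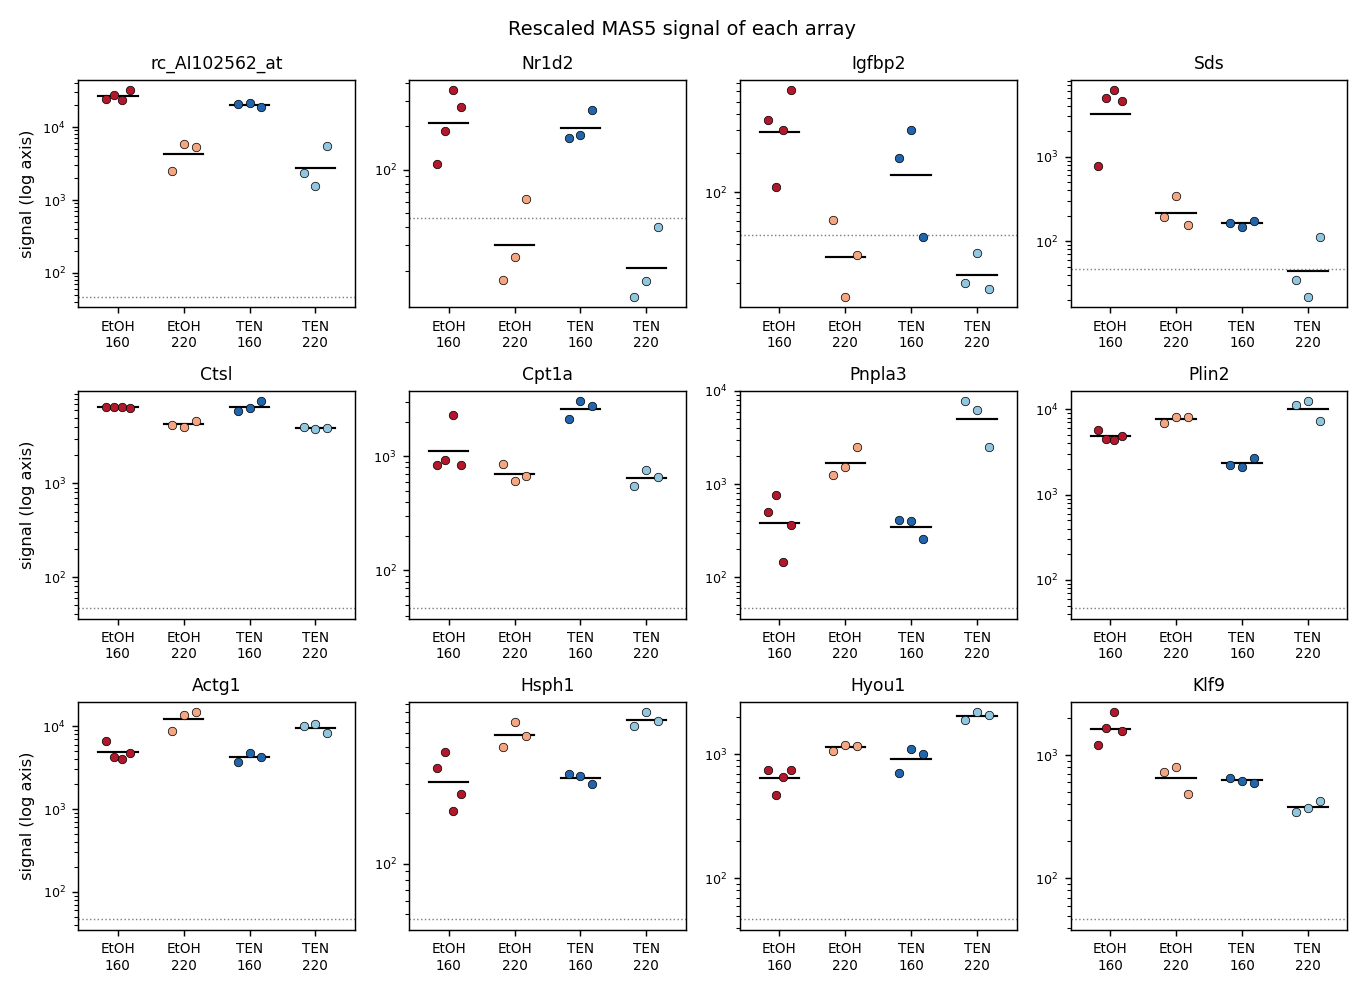
Each point is the rescaled signal of 1 array on a log axis for 12 probe sets, with EtOH-160, EtOH-220, TEN-160 and TEN-220 from left to right, a bar at each group's geometric mean and a dotted line at the background signal of 46.6. The panel titled rc_AI102562_at is the probe set annotated to Mt1f, Ttr and Mt1, and in every panel except Cpt1a, where 1 EtOH-220 array reaches into the EtOH-160 range, the livers at 160 kcal do not overlap those at 220 kcal on the same diet.

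Transporters and conjugation enzymes were among the shared rises. Slc10a1, the sodium-dependent carrier that takes bile acids up from blood, read 3393.5, 5217, 4802 and 4395 in EtOH-160 livers, against 2704, 2934 and 3103 in EtOH-220 livers, and 5237, 6092 and 7259.5 in TEN-160 livers, against 2935, 2714 and 2485 in TEN-220 livers. No liver at 160 kcal fell below one at 220 kcal on the same diet, and the changes were 0.60 (SE 0.16) with ethanol and 1.18 (SE 0.17) without (adjusted p = 0.000821). Slco1a4, an organic anion transporter, rose by 1.09 and 1.27 (adjusted p = 0.00387). They were the 2 shared genes of 17 measured in bile acid synthesis and transport, where 1.12% of all measured genes were shared higher. Cyp7a1, the rate-limiting enzyme of bile acid synthesis, did not pass, at -0.34 and 0.81 (adjusted p = 0.695). The sulfotransferase Sult1c3 read 2708, 2009, 3255 and 1553 in EtOH-160 livers, against 418, 191 and 1495 in EtOH-220 livers, and 4649, 2397 and 4672 in TEN-160 livers, against 1370.4, 1501 and 1009 in TEN-220 livers. It rose by 2.22 and 1.55 (adjusted p = 0.00719), and Gsta4, a glutathione transferase that detoxifies lipid peroxidation products, by 0.46 and 0.71 (adjusted p = 0.00685). The dimmer Gsta4 probe set, at 0.07 and 1.26, was higher in the average (adjusted p = 0.0086) but not shared. Sult1c3 and Gsta4 were the 2 shared ones of 23 measured conjugation enzymes, whose medians were 0.10 with ethanol and -0.02 without. The only shared cytochrome P450 of 24 measured, Cyp2c22, was lower, at -0.83 and -0.69, and its average call (adjusted p = 0.0184) was lost without TEN-220 replicate 2 (0.0508).

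Fuel genes that rose in both strata were few. Cpt1a, which admits long-chain fatty acids to mitochondria, read 848, 926, 2316 and 846 in EtOH-160 livers, against 852, 602.5 and 668 in EtOH-220 livers, and 2117, 3043 and 2782 in TEN-160 livers, against 550.3, 766 and 656 in TEN-220 livers. TEN-160 and TEN-220 were separate, whereas EtOH-160 and EtOH-220 overlapped and 1 EtOH-160 array of 4 was far above the others. Changes were 0.67 (SE 0.30) with ethanol and 2.01 (SE 0.32) without (adjusted p = 0.00321). Without EtOH-160 replicate 3 the change with ethanol was 0.32 and Cpt1a left the shared class, while its average change remained called (1.16, adjusted p = 0.000807). Cpt1a was the only shared gene of 25 measured for fatty acid oxidation and ketogenesis, where 1.12% of all measured genes were shared higher. Of the 25, 17 had opposite signs in the strata, 4 were positive in both and 4 negative, against 25.8% and 23.9% of all measured genes. Acsm2, a medium-chain acyl-CoA synthetase, rose by 1.65 and 1.15 (adjusted p = 0.00628), and Hacl1, a lyase of peroxisomal alpha-oxidation, by 1.05 and 0.89 (adjusted p = 0.0131). Pygl, the glycogen phosphorylase of liver, rose by 0.47 and 0.56 (adjusted p = 0.0199, and 0.0515 without TEN-220 replicate 1). Ctsl, a lysosomal cysteine protease, had small and even changes on both of its shared probe sets, at 0.61 and 0.75 on one and 0.51 and 0.47 on the other. The receptor subunits Il6r and Il6st, which bind interleukin-6 and pass on its signal, rose together, Il6r by 0.82 with ethanol and 0.65 without, and Il6st by 0.60 and 0.81 (adjusted p = 0.00685 and 0.0083).

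The remaining named rises had average changes between 0.75 and 1.23. Rnase4, a secreted ribonuclease, read 2459, 3511, 4083 and 3353 in EtOH-160 livers, against 1681, 2009 and 2265 in EtOH-220 livers, and 3961, 4675 and 4529 in TEN-160 livers, against 2688, 2289 and 2819 in TEN-220 livers. Its changes were nearly equal in the strata, 0.74 (SE 0.17) with ethanol and 0.76 (SE 0.19) without (adjusted p = 0.00326). RT1-S3, a class I histocompatibility gene, rose by 0.94 and 1.02, Sparcl1, a matrix-associated protein of the SPARC family, by 0.72 and 1.33, Ptgr1, prostaglandin reductase, by 0.81 and 0.94, Cybrd1, a ferric reductase, by 0.84 and 0.74, and Gas5, a non-coding RNA that hosts small nucleolar RNAs, by 0.96 and 1.49. Only 1 of 3 EtOH-220 arrays was above background for this Gas5 probe set, whose change with ethanol was 0.44 with values below background set to it, and the brighter Gas5 probe set, which was not shared, changed by 0.17 and 0.90. The brightest RT1-S3 probe set had opposite signs, 0.84 and -0.19, and did not pass (adjusted p = 0.235). Several of these average calls rest on few arrays. The call of RT1-S3 was lost without TEN-220 replicate 2 (adjusted p = 0.0503), that of Ptgr1 without TEN-160 replicate 1 (0.0512), that of Gas5 without TEN-160 replicate 3, TEN-220 replicate 1 or TEN-220 replicate 2 (up to 0.0673), and that of Cybrd1 without any array but EtOH-160 replicates 2 and 4 and EtOH-220 replicate 1 (up to 0.098).

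Among the falls were genes of the fat droplet. Pnpla3, a lipid droplet protein of the patatin-like phospholipase family that is strongly induced by feeding, read 507, 764, 145 and 367.5 in EtOH-160 livers, against 1266, 1540.4 and 2504 in EtOH-220 livers, and 410.4, 406.5 and 257 in TEN-160 livers, against 7750.2, 6297.5 and 2524 in TEN-220 livers. The groups were separate in both strata, and the livers at 160 kcal reached similar geometric means, 379 in EtOH-160 and 350.0 in TEN-160, against 1696 in EtOH-220 and 4975 in TEN-220. Changes were -2.16 (SE 0.49) with ethanol and -3.83 (SE 0.52) without (average adjusted p = 0.000521). Plin2, the perilipin that coats hepatocyte fat droplets, read 5693, 4467, 4330.0 and 4859 in EtOH-160 livers, against 6943, 8178 and 8096 in EtOH-220 livers, and 2239.5, 2097 and 2708 in TEN-160 livers, against 11249, 12422 and 7217.5 in TEN-220 livers on its brighter probe set. It fell in both strata, but more without ethanol, at -0.68 (SE 0.18) with ethanol and -2.10 (SE 0.19) without (average adjusted p = 0.000128, interaction adjusted p = 0.00797). The dimmer Plin2 probe set gave -1.18 and -1.58, with no interaction call (adjusted p = 0.586). Mgll, the lipase that splits monoacylglycerols, fell by 0.78 with ethanol and by 2.95 without (average adjusted p = 0.000444), a difference that was called (interaction adjusted p = 0.00882). Fat synthesis as a whole was not a shared effect. Of 12 measured lipogenesis genes, 5 were lower in the average (Fasn, Acly, Scd, Srebf1 and Pnpla3) and only Pnpla3 was shared, 6 had a negative change in both strata and 6 opposite signs, and the list's median was -0.08 with ethanol and -1.02 without. Over all measured genes, 4.25% were lower in the average, 1.09% shared lower and 23.9% negative in both strata. Fasn, fatty acid synthase, changed by 0.15 (SE 0.28) with ethanol and -2.26 (SE 0.30) without, and the difference was called (interaction adjusted p = 0.00482). Srebf1, which encodes the transcription factor SREBP-1, changed by -0.48 (SE 0.29) and -1.54 (SE 0.31), with no interaction call (adjusted p = 0.14).

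The heat shock list held proteins of the cytosol and mitochondria and the transcription factor Hsf1. In it 3 of 11 measured genes were in the shared class, while 1.09% of all measured genes were shared lower. Of the 11, 9 had a negative change in both strata, 2 had opposite signs and none was positive in both, against 25.8% of measured genes positive and 23.9% negative in both. The list's median was -0.42 with ethanol and -0.31 without, and 3 members were shared, all lower: Hsph1, Hspa4 and Hsp90ab1. Hsph1, an HSP110 family member that helps HSP70 refold proteins, read 373, 462, 205 and 261 in EtOH-160 livers, against 498, 703 and 581.7 in EtOH-220 livers, and 344, 333 and 301 in TEN-160 livers, against 662, 801 and 709 in TEN-220 livers. No liver at 160 kcal reached any at 220 kcal, and the changes were -0.93 (SE 0.24) with ethanol and -1.15 (SE 0.26) without (average adjusted p = 0.00326). Hspa4, of the same family, read 309, 273, 270.1 and 277 in EtOH-160 livers, against 482, 366 and 371 in EtOH-220 livers, and 245, 202 and 263 in TEN-160 livers, against 372, 473.5 and 323 in TEN-220 livers. It fell by 0.52 with ethanol and by 0.71 without (adjusted p = 0.0111), though its other, dimmer probe set did not pass (adjusted p = 0.553). Hsp90ab1, the constitutive HSP90, read 7016, 7687, 6712 and 6561 in EtOH-160 livers, against 9828, 9053 and 9127 in EtOH-220 livers, and 7722, 8181.5 and 5733 in TEN-160 livers, against 9357, 10912 and 9566 in TEN-220 livers on its brightest probe set. Its fall of 0.42 and 0.48 was small but without overlap (adjusted p = 0.0144). Of its 4 probe sets 2 were shared. Outside the list, 3 further genes for chaperones or their partners are given, Stip1 and Cct6a having been picked after their values were seen. Fkbp4, an immunophilin that links HSP90 to steroid receptors, read 1055, 406.5, 330.1 and 627 in EtOH-160 livers, against 1035, 1267 and 1535 in EtOH-220 livers, and 589, 719 and 288 in TEN-160 livers, against 1274, 1559.6 and 1384 in TEN-220 livers. In the ethanol stratum EtOH-160 replicate 1 overlapped the EtOH-220 livers, and the changes were -1.21 (SE 0.36) with ethanol and -1.498 (SE 0.39) without (adjusted p = 0.00685). Another Fkbp4 probe set was shared too, at -1.05 and -1.41, while the dimmest, at -1.24 and -0.43, did not pass (adjusted p = 0.0515). Stip1, the adaptor between HSP70 and HSP90, fell by 0.62 and 0.95 (adjusted p = 0.027, lost on leaving out 9 of the 13 arrays, up to 0.067). Cct6a, a subunit of the TRiC chaperonin, fell by 0.95 and 0.51 (adjusted p = 0.0135). On the values as deposited, in which the unscaled TEN-220 replicate 1 shifts the median change of all probe sets without ethanol to 0.70, the heat shock median without ethanol was 0.33.

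Promoter windows of 2 of the chaperone genes that fell are shown because they share the letters GAAAGTTC, a match to GAANNTTC, the core of the heat shock element. For Hsph1 (chr12:10427118-10427417, plus strand) the match in capitals lies 31 bases before the start, and for Fkbp4 (chr4:163397869-163398168, minus strand) it lies 137 bases before it, in RefSeq (GRCr8).
Hsph1: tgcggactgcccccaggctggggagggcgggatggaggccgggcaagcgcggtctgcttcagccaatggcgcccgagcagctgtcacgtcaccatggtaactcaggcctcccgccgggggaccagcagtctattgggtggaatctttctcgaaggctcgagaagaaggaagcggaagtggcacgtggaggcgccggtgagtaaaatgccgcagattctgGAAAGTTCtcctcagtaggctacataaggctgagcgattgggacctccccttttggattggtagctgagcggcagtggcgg
Fkbp4: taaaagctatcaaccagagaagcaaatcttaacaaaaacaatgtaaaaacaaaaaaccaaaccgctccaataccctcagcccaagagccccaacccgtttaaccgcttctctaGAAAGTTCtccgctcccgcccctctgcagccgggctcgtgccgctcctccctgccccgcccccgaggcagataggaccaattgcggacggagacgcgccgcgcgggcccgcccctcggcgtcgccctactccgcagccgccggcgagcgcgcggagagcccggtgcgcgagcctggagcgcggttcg
The windows of Hsp90ab1, Hspa4 and Stip1 hold no GAANNTTC.

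Endoplasmic reticulum chaperones gave 2 shared genes of 13 measured, both lower, while 1.09% of all measured genes were shared lower. Canx, also in the list, was higher in the average but not shared. Hyou1, the GRP170 chaperone of the endoplasmic reticulum, read 746, 467, 651 and 745 in EtOH-160 livers, against 1059, 1185 and 1177 in EtOH-220 livers, and 713, 1096.5 and 1007 in TEN-160 livers, against 1909, 2181 and 2086 in TEN-220 livers. Both pairs of groups were separate, at -0.83 (SE 0.19) with ethanol and -1.15 (SE 0.20) without (average adjusted p = 0.0012). The other, dimmer Hyou1 probe set, at -0.59 and -0.12, did not pass (adjusted p = 0.335). Hsp90b1, the HSP90 of the endoplasmic reticulum, read 2761, 1593.5, 2279.7 and 2808 in EtOH-160 livers, against 4256, 3312.5 and 3903 in EtOH-220 livers, and 1346, 1862 and 1557 in TEN-160 livers, against 2337, 2177 and 2889 in TEN-220 livers. It fell by 0.72 with ethanol and by 0.64 without on this probe set (adjusted p = 0.0118), whereas 2 other probe sets for it had opposite signs in the strata. In the list 7 genes had a negative change in both strata and 2 a positive one, against 23.9% and 25.8% of all measured genes. Its medians were -0.14 with ethanol and -0.05 without, the second turning to 0.59 on the values as deposited. Outside the list, Slc35b1, a nucleotide transporter of the endoplasmic reticulum, fell by 0.75 and 1.32 on one probe set and by 0.74 and 1.42 on the other (adjusted p = 0.00321 for both), and Lrrc59, a ribosome-binding protein of the same membrane, by 0.81 and 0.79 on the first of 2 shared probe sets (adjusted p = 0.00464).

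Several genes of the cytoskeleton fell in both strata. Actg1, cytoplasmic gamma-actin, read 6588, 4218, 4051 and 4773 in EtOH-160 livers, against 8701, 13650.5 and 14660.3 in EtOH-220 livers, and 3691.5, 4774 and 4278 in TEN-160 livers, against 9901, 10667 and 8368 in TEN-220 livers. All 7 livers at 160 kcal were below all 6 at 220 kcal, and the changes, -1.32 (SE 0.20) with ethanol and -1.18 (SE 0.22) without, were alike in size (average adjusted p = 0.000521). This is a family probe set that related actins could share. The probe set rc_AI179012_s_at, annotated to Actg1l1, Actg1 and Actb, fell by 0.60 and 0.57 (adjusted p = 0.00326). Actb itself, cytoplasmic beta-actin and often used as a reference gene, was lower in the average (adjusted p = 0.00654), at -0.72 (SE 0.13) with ethanol and -0.24 (SE 0.14) without, and its change without ethanol did not pass (adjusted p = 0.229). Tuba4a, an alpha-tubulin, read 468, 129, 316 and 273.5 in EtOH-160 livers, against 636, 654 and 552 in EtOH-220 livers, and 481, 213 and 219 in TEN-160 livers, against 614, 753 and 662.5 in TEN-220 livers. It fell by 1.19 and 1.26 with no overlap (adjusted p = 0.0118). Actn4, the actin cross-linker alpha-actinin-4, fell by 0.46 and 0.87 (adjusted p = 0.0165), and Sptan1, alpha-spectrin of non-erythroid cells, by 0.98 with ethanol (adjusted p = 0.00772), while without ethanol all TEN-160 arrays were below background and Sptan1 was at least 2.02-fold lower than in TEN-220. Of 22 measured actin and cytoskeleton genes, 13 had a negative change in both strata and 4 a positive one, and 3 were shared, all lower. Over all measured genes, 23.9% were negative and 25.8% positive in both strata, and 1.09% were shared lower. The list's medians were -0.16 with ethanol and -0.30 without, the second turning to 0.34 on the values as deposited. Of 8 measured markers of stellate cells and fibroblasts, which are rich in actin, none was called in the average, and their summed signal was 2659 to 3743 in EtOH-160 and 2465 to 3078 in EtOH-220, and 3789 to 6705 in TEN-160 and 3217 to 3751 in TEN-220. The part of those cells in the actin result was not tested.

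Mitochondrial and other genes completed the named falls. Cox6c, a cytochrome c oxidase subunit, read 271, 211, 138 and 262 in EtOH-160 livers, against 618, 393 and 917 in EtOH-220 livers, and 93.8, 73.0 and 191 in TEN-160 livers, against 322, 287 and 228.5 in TEN-220 livers. The groups did not overlap, and the changes were -1.51 (SE 0.35) with ethanol and -1.34 (SE 0.37) without (adjusted p = 0.00425), but its other, brighter probe set had opposite signs, 0.14 and -2.05, and did not pass (adjusted p = 0.148). Ndufb8, a complex I subunit, fell by 1.27 and 1.52 on a dim probe set (adjusted p = 0.0369, lost on leaving out 9 of the 13 arrays, up to 0.0941). Its brightest probe set changed by 0.40 with ethanol and 0.09 without and did not pass (adjusted p = 0.309). Nor did its remaining probe sets, which were also brighter than the shared one (adjusted p = 0.371 and 0.593). In the list of 33 measured respiratory chain and ATP synthase genes, each entered by its brightest probe set, none was shared and 23 had opposite signs. Ppil3, a peptidyl-prolyl isomerase, fell by 1.49 and 1.66, and Eef1a1, translation elongation factor 1 alpha, by 0.96 and 1.57 (adjusted p = 0.0179 and 0.0144), whereas the brighter Eef1a1 probe set was higher in the average (0.59, adjusted p = 0.00566). Cdc42bpa, a kinase that acts on the actin-myosin cytoskeleton, fell by 1.03 and 0.99 with overlapping groups in both strata (adjusted p = 0.0497, lost on leaving out 10 of the 13 arrays, up to 0.113). Dusp1, a phosphatase that inactivates MAP kinases, fell by 1.03 and 1.37 (adjusted p = 0.0383) and the proteasome subunit Psma1 by 0.93 and 0.97 (0.0335), each losing its call on leaving out 8 of the 13 arrays (up to 0.0894 and 0.0831). The brightest Dusp1 probe set, at -0.74 and -2.36, was lower in the average (adjusted p = 0.00685) but not shared. Another, at -1.38 and -0.13, did not pass (adjusted p = 0.175). The brighter Psma1 probe set had opposite signs, -0.28 and 0.32, and did not pass (adjusted p = 0.946). Cp, ceruloplasmin, the main copper carrier of plasma, fell by 0.94 and 0.78 on a dim probe set (adjusted p = 0.00407), while its 2 brighter ones had opposite signs in the strata and did not pass (adjusted p = 0.17 and 0.135). The probe set X53588_at, with no gene name here, changed by -2.01 and -2.15, lower without overlap (adjusted p = 0.000521).

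**Figure D4:**
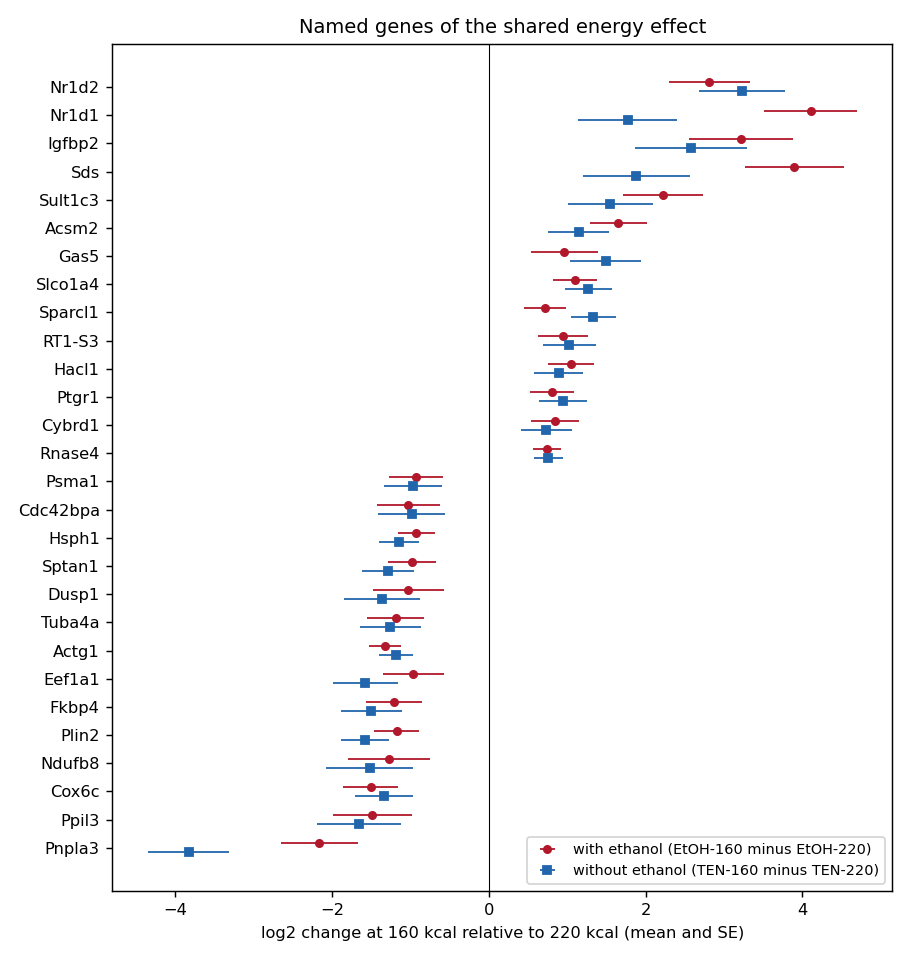
Points are log2 changes at 160 kcal relative to 220 kcal with the standard error of the model, with ethanol in red and without in blue, for the 14 higher and 14 lower shared genes with the largest smaller-of-the-strata changes. The error bars of the strata overlap for most genes, and Nr1d1, Sds and Pnpla3 show the widest gaps in these fitted values, which are not bounded at background, with Pnpla3 lower by 2.16 with ethanol and by 3.83 without.

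Other lists had few or no shared members. Over all measured genes, 1.12% were shared higher and 1.09% shared lower. A positive change in both strata was found in 25.8% of them and a negative one in 23.9%. Of 24 proteasome and ubiquitin genes 17 had a negative change in both strata and 4 a positive one, with medians of -0.16 with ethanol and -0.17 without, none was shared by its brightest probe set, and the average median turned to 0.13 on the values as deposited, where that of all probe sets was 0.33. Of 18 extracellular matrix genes 9 were positive in both strata and none negative in both, with medians of 0.16 and 0.17 (the second -0.05 after median centring), and none was called in the average. Of 37 cytosolic ribosomal protein genes, 7 were higher and 2 lower in the average but only Rpl17, which was lower, was shared, and its fall was larger without ethanol (interaction adjusted p = 0.0257). No gene was shared among 22 acute phase proteins, 21 oxidative stress genes, 15 methionine cycle genes or 12 cholesterol genes. At the shares over all measured genes, lists of this size would often hold none, so this does not set them apart.

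**Figure D5:**
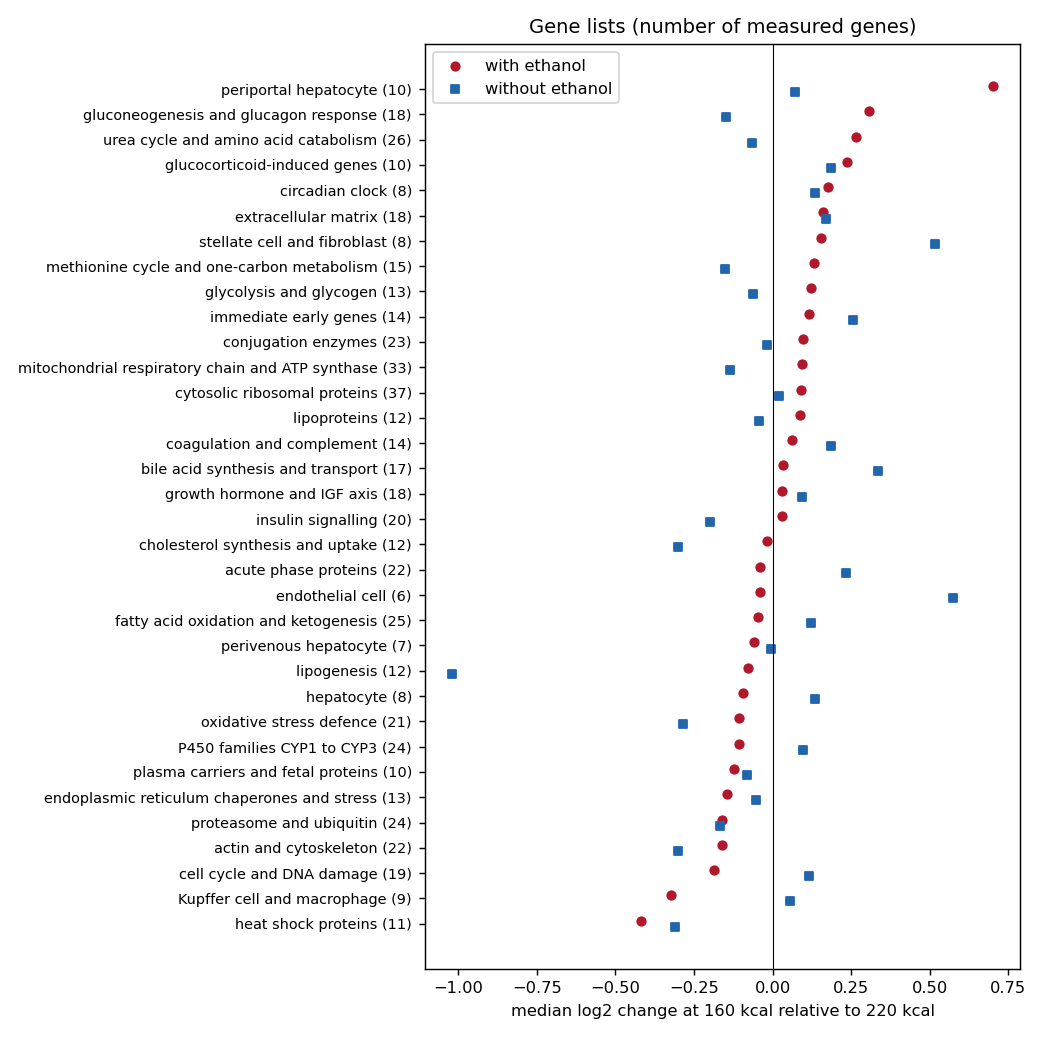
For each gene list with at least 6 measured genes, the median log2 change at 160 kcal relative to 220 kcal is shown with ethanol (red circles) and without (blue squares), each gene entering by its brightest probe set. Heat shock proteins lie at -0.42 with ethanol and -0.31 without, proteasome genes at -0.16 and -0.17, and lipogenesis at -0.08 with ethanol but -1.02 without.

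Several genes usually named for undernutrition were not shared. Igfbp1, an insulin-repressed IGF binding protein, read 429, 817, 1133 and 1138 in EtOH-160 livers, against 851, 1463 and 275 in EtOH-220 livers, and 1470.0, 1382 and 2448 in TEN-160 livers, against 82.3, 289 and 289 in TEN-220 livers. TEN-160 and TEN-220 were separate but EtOH-160 and EtOH-220 overlapped, and the change was 0.23 (SE 0.55) with ethanol and 3.17 (SE 0.59) without, a difference that was called (interaction adjusted p = 0.0397). Pck1, phosphoenolpyruvate carboxykinase of glucose synthesis, was higher in the average (adjusted p = 0.0241) with changes of 0.94 (SE 0.59) with ethanol, where the groups overlapped, and 2.48 (SE 0.63) without. Its interaction was not called (adjusted p = 0.281), so the strata were not shown to differ. Socs2, a feedback inhibitor of growth hormone signalling, was at least 3.06-fold higher in TEN-160 than in TEN-220, where no array was above background, and its fitted change with ethanol was 0.64, or 0.43 with values below background set to it (interaction adjusted p = 0.135), and Ghr, the growth hormone receptor, did not pass in the average (adjusted p = 0.286). Afp, alpha-fetoprotein, was lower in the average on 1 of 2 probe sets (adjusted p = 0.00326), on which no TEN-160 array was above background, and its change with ethanol was -0.41. Across all probe sets the interaction was called for 404 (7.7%). The change with ethanol was the higher one in 194 (3.7%) and the lower one in 210 (4%), and in 324 of the 404 the strata had opposite signs. Of the 130 shared probe sets, 5 were among the 404.

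Where a gene was measured more than once, the probe sets can be compared. Of 14 genes with more than 1 shared probe set, among them Asl, Ctsl, Fkbp4, Igfbp2, Nr1d1, Otc, Plin2, Sds and Slc35b1, none had shared probe sets that moved in opposite directions. Of 44 shared genes with more than 1 tested probe set, 36 had average changes of 1 sign on all of them, and the exceptions were Ap2b1, Cp, Eef1a1, Gch1, Ndufb8, Psma1, Ptprs and Thra. Both counts cover only genes picked for having a shared probe set, and the same counts over other genes are not given. Leaving out each array in turn kept 88 to 114 of the 130 in the shared class, and 49 were in it every time, 18 higher and 31 lower. These include Nr1d2, Igfbp2, Sult1c3, Acsm2, Slco1a4, Slc10a1, Rnase4, Klf9 and Ctsl among the higher, and Pnpla3, Plin2, Cox6c, Fkbp4, Hsph1, Hsp90ab1, Hsp90b1, Hyou1, Actg1, Tuba4a and Sptan1 among the lower. Sds, Nr1d1, Asl and Otc left the class in at least 1 of the 13 fits, and of the 28 genes with the largest smaller-of-the-strata changes 15 stayed in it every time. The average call itself was kept in all 13 fits by 93 of the 130.

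Promoter windows of the shared genes were searched on both strands for 6 short motifs, of which GAANNTTC was added after the leading genes were known. Of the 40 higher genes 36 had windows (37 in all), of the 47 lower genes 41 had (46 windows), and of all 3129 measured genes 2587 had (2766 windows). The E-box CACGTG was in 13.5% of the higher windows, 15.2% of the lower and 9.18% of all measured genes' windows. TGACG, the core of the cAMP response element, was in 35.1%, 43.5% and 30.2%, and GTAAACA, bound by forkhead factors, in 8.11%, 4.35% and 2.68%, which is 3 and 2 windows of the shared genes. The nuclear receptor half-site AGGTCA was in 10.8%, 4.35% and 14.2%, and AGAACA, a part of the glucocorticoid response element, in 13.5%, 8.70% and 12.98%. GAANNTTC was in 0% of the higher windows, 6.52% of the lower and 5.39% of all. These are counts of letters, and a match is not a bound site.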

How the data were processed

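Liver RNA of 13 samples was measured on 1 one-colour Affymetrix rat array each. The authors deposited one linear intensity per probe set, made with MAS5 (no version stated) per the submitters' processing notes. Their trimmed mean (2% off each end) was 501 on 12 arrays and 133 on TEN-220 replicate 1, which was multiplied by 3.76. Signals were floored at 9.5 (10th percentile) and taken to log2. The 59 controls and the dimmest 40% of 8740 probe sets were left out (5244 kept; 4308 named 1 gene, 245 several, 691 none, 4296 matched to RefSeq by Entrez ID, 3129 genes). Background was 46.6, the 95th percentile over 19 controls foreign to rat; "at least" folds set values below it to it. No arrays held identical values.

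A model with 1 mean for each of the 4 groups was fitted in limma 3.58.1 under R 4.3.3 (lmFit, then eBayes with trend). Tests were two-sided, and p-values were adjusted by Benjamini-Hochberg within each contrast over all 5244. The contrasts were energy with ethanol, energy without, their average, and their difference; array number limits precision (median SE of the average 0.178). Numbered arrays did not deviate together (r -0.105 to 0.0911 over 18 pairs), so no block was used. In simulated data with 200 of 5244 probe sets changed, the average recovered 42%, 76%, 98% and 100% of 1.5-, 2-, 4- and 8-fold changes with 13 false of 171 calls. The shared class of those data held 160 with 5 false. How many members of the shared class of the livers are false was not tested. The text names the 14 higher and 14 lower shared genes with the largest smaller-of-the-strata change, both-strata calls, up to 4 shared members of a list by p, the 6 interaction calls of opposite sign with the smallest p, and a fixed set of genes, of which some are not reported here; Ttr, Il6r, Il6st, Ctsl, Mgll, Stip1, Cct6a, Slc35b1, Lrrc59 and probe sets with no or several genes were added after their values were seen. The comparison, gene lists and this rule were chosen with earlier results of these data known. Alternatives were other scalings, floors, filters, variance models, thresholds, an additive model, a replicate block and leaving out arrays. Plots used matplotlib 3.10.9 and Python 3.11.15.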

Additional observations from a re-analysis of the deposited data

Results flagged for a closer look

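In EtOH-160, 1 of 4 arrays lay apart from the others for 2 of the 67 named probe sets checked, where chance alone flags about 1 in 20 groups. Cpt1a read 2315.8 on EtOH-160 replicate 3, with 846 to 926 on the other 3, a gap of 0.910 of the group's range. Sds (J03863_at) read 786.5 on EtOH-160 replicate 1, with 4607 to 6163 on the other 3, a gap of 0.859 of the range. Without that array the change of Sds with ethanol was 4.58 and its average change 3.23 (limma, adjusted p = 0.000284), and the values for Cpt1a without its array stand with that gene.

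The energy effect differed between the diets in 9 probe sets given here, and also in 1 probe set each of Plin2 and Mgll, by the interaction test of limma (effect with ethanol minus effect without, log2). Pdpk1, the kinase that activates AKT, had a difference of 3.97 (adjusted p = 0.000232): it changed by 0.24 with ethanol, and without ethanol no TEN-160 array was above background, so that it was at least 3.08-fold lower than in TEN-220 and the fitted difference is not a measured size. Sdc4, a heparan sulfate proteoglycan, differed by 1.78 (0.00097), Tkfc, the triokinase of fructose metabolism, by 1.80 (0.00157), and Ptpn21, a tyrosine phosphatase, by 1.77 (0.00157). In the other direction, Kctd13, an adaptor of a ubiquitin ligase, differed by -6.01 and Cyb5a, cytochrome b5, by -2.72 (0.00213 for both), each higher in TEN-160 than in TEN-220. Another Kctd13 probe set (rc_AA859966_s_at) changed by -0.06 with ethanol and 0.11 without, and another for Cyb5a (AF007107_s_at) by -0.04 and 0.37. For Sdc4, another probe set (S61868_g_at) changed by 0.34 and -1.06, and a dim one (rc_AA800059_at) by 0.53 and 0.98. Fasn (X13527cds_s_at) differed by 2.41 (0.00482), Rpl17 by 1.37 (0.0257) and Igfbp1 by -2.94 (0.0397). These 9 differences all use the TEN-160 arrays that stood apart, and the part of that in them was not tested.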

How the results depend on the processing

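No called average change of a named probe set turned its sign under the alternatives run. Among those not called, Cyp7a1 (0.24) was -0.10 without TEN-220 replicate 1 and Tat (0.13) was -0.01 without EtOH-220 replicate 3. Over all alternatives, 155 values of named probe sets lost their call and 10 gained one. Taken in the order average, shared, both-strata, with ethanol, without ethanol and interaction, the counts of calls were 454, 130, 1, 11, 958 and 404. On values as deposited, with TEN-220 replicate 1 not rescaled, they were 64, 24, 8, 17, 346 and 65, and 18 of the 130 stayed shared. At an adjusted p under 0.01 they were 151, 69, 0, 0, 390 and 96. At 0.1, 728 were called in the average, 5 by the both-strata test, 53 with ethanol and 749 in the interaction. Array weights gave 785 in the average and 3 by the both-strata test. An additive model with ethanol as a stratum gave 145 in the average. Median centring gave 2 by the both-strata test, and split the average calls 156 higher to 330 lower. With no filter the both-strata test and the ethanol stratum gave 0 each, without the variance trend 0 and 7. A floor at background gave 20 with ethanol, and leaving out the 3 TEN-160 arrays, chosen after seeing the data, gave 5. Quantile normalization kept 113 of the 130 shared. Leaving out 1 array at a time gave 267 to 541 in the average, 92 to 148 shared, 0 to 5 by the both-strata test, 0 to 53 with ethanol, 517 to 1067 without ethanol and 146 to 368 in the interaction. The lowest average and interaction counts came without TEN-220 replicate 1, the highest with-ethanol count without EtOH-160 replicate 1 (53) and the lowest without EtOH-160 replicate 4 (0). Same-numbered arrays did not deviate together (r -0.105 to 0.0911 over 18 pairs), but groups of 3 or 4 arrays cannot exclude a pairing. A replicate block gave 373 in the average, 119 shared, 1 by the both-strata test, 2 with ethanol, 886 without and 314 in the interaction. The median of the glycolysis and glycogen list was 0.16 by brightest probe sets and -0.04 with all probe sets averaged. The causes of these shifts were not tested. Changes below about 1.5-fold are at the limit of 3 or 4 arrays per group, and genes near background have bounds at best.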
